A study of Mus musculus with 6 samples.

Results

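The leukocyte miRNAs described here are miR-142, miR-223, miR-150 and miR-342. They were taken by name: each deposited row with a mature name of one of these miRNAs was kept, whatever its arm, species prefix or isoform suffix, and rows identical in name and sequence were added up as 1 feature. This gave 9 of the 756 features in the table, of which 2 belong to miR-142, 1 to miR-223, 2 to miR-150 and 4 to miR-342. The names were mostly rat ones (rno), and 3 features carried cattle names (bta).

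Small RNA was sequenced from 6 libraries labelled Mes23.5, a dopaminergic hybrid of a mouse neuroblastoma and midbrain cells of the rat. All had been exposed for 24 h to LPS, a component of the bacterial cell wall. In 3 libraries (SIX2_EV) the cells had received extracellular vesicles of microglia overexpressing the transcription factor SIX2, and in 3 (control_EV) vesicles of control microglia. Both groups thus had LPS and vesicles, and a group without either was not analysed here. How SIX2 was raised and how much of the vesicles was given are not stated in the labels. Their text on culture speaks of BV2 (microglia of the mouse) where the other fields have Mes23.5, so the cell is named here by its label alone. Separate cultures are not mentioned either, and p-values therefore measure the spread among libraries of a group, which may be technical.

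A miRNA is cut from a hairpin transcript, and either arm of the hairpin (5p or 3p) can become the mature strand. Bases 2 to 8 of the mature strand, the seed, pair with target messenger RNAs. miR-142 is made in nearly all blood cell lineages, microglia included, and is little expressed outside them. miR-223 is a miRNA of granulocytes and monocytes, miR-150 of mature lymphocytes, where it restrains the transcription factor Myb, and miR-342, which lies in an intron of the actin regulator gene Evl, is found in lymphoid and myeloid cells. None of them is a defining miRNA of neurons, which is why their level in a culture labelled as dopaminergic is of interest.

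The sequences of the 6 rat-named features are shown first because the ends of a read decide its seed and whether its species can be read. They are given 5′ to 3′ as deposited, in DNA letters, with the seed in capitals, and are followed by the RefSeq (GRCm38.p6) mouse miRNAs that differ from them at the 5′ end or extend past their 3′ end.
rno-miR-142-5p_L+2R-1: cCCATAAAgtagaaagcactac
rno-miR-142-3p_R-1: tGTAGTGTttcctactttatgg
rno-miR-223-3p_R+1: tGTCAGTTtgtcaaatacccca
rno-miR-150-5p: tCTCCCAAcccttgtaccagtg
rno-miR-342-3p_R-2: tCTCACACagaaatcgcaccc
rno-miR-342-5p_L-1R+4: gGGGTGCTatctgtgattgagggac
mmu-miR-142a-5p in RefSeq: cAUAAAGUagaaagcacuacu
mmu-miR-142a-3p in RefSeq: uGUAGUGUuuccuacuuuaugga
mmu-miR-342-3p in RefSeq: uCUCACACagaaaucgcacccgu
mmu-miR-342-5p in RefSeq: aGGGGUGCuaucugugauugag
Of 6 mouse names looked up in the RefSeq table, 5 were matched.

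The letters L and R in a name count the bases gained or lost at the left and right end against the annotated miRNA. The deposited miR-142-5p began 2 bases upstream of the annotated 5′ end, so its seed was CCATAAA, not the AUAAAGU of the annotated strand. None of the 756 features carried the annotated miR-142-5p seed. Each arm of miR-142 was listed as 1 sequence, and whether reads with other ends were counted under it was not tested. Seeds and ends given here are therefore those of the listed sequences. The rare miR-342-5p began 1 base downstream and also had a shifted seed. Among all 515 features with a mature name, 86 (16.7%) had a shifted 5′ end, and 7 of them were longer by 2 bases as miR-142-5p was. The strands miR-142-3p, miR-223-3p, miR-150-5p and miR-342-3p kept the annotated seed, and the deposited miR-223-3p was identical to the RefSeq mouse strand, although it is 1 base longer than the rat one. The members fell into 6 seeds. The rat-named miR-150-5p shared its seed with the cattle-named miR-150, the rat-named miR-342-3p with both cattle-named forms of miR-342, and no feature outside the 9 had any of the 6 seeds.

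All 6 rat-named sequences occurred without mismatch in the mouse hairpin on which they were placed. In a genome build that the sources used here do not name, both arms of miR-142 were placed at chr11:87647671-87647781, miR-223-3p at chrX:95286423-95286532, miR-150-5p at chr7:44771171-44771252 and both rat-named arms of miR-342 at chr12:108624875-108624977, all on the plus strand. In GRCm38, where the same genes have other coordinates, GENCODE M21 has Mir142 within an intron of the long non-coding RNA Mir142hg and opposite the antisense hairpin Mir142b, Mir223 within an exon of the non-coding RNA F630028O10Rik, Mir150 overlapping no other gene, and Mir342 within an intron of Evl. By exact sequence, each rat-named member was found in 1 GENCODE M21 gene, its own hairpin, except miR-223-3p, which is also part of F630028O10Rik. One further sequence, outside the name rule, was named for a miR-142 hairpin of another species (sha) with a T to C substitution at base 7. It had 9 and 5 reads in the first and second control_EV library and was listed at 0 in the others.

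The 3 cattle-named members did not occur without mismatch in the mouse hairpins. Positions are counted from 1 at the 5′ end, with the base of the mouse hairpin first and the deposited base last. The shorter cattle-named miR-342 (bta-miR-342_R-1, 24 bases) differed from the mouse hairpin by G22A, and the longer one (bta-miR-342, 25 bases) by G22A and A25T. The cattle-named miR-150 (bta-miR-150, 23 bases) differed by C23T, at its last base. Over their whole length all 3 were identical to the cattle miRNA that the authors list for them. The authors placed bta-miR-342_R-1 at the mouse miR-342 hairpin (chr12:108624882-108624975) and bta-miR-150 at the mouse miR-150 hairpin (chr7:44771169-44771257) in spite of the mismatch, and gave bta-miR-342 no mouse position.

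None of the listed miR-342-3p sequences carried the mouse base at position 22. Reads are counted here under the sequence listed for them. Of 693 reads of this arm in all libraries, 676 (97.5%) ended past position 22 and had the base of the cattle miRNA there, and 17 (2.45%), all in the third control_EV library, ended before it. Of the 676 reads, 10, 6 and 127 were from SIX2_EV and 54, 100 and 379 from control_EV, so the form was present in every library of both groups. For miR-150-5p, 50 of 193 reads (25.9%) reached position 23 and had the base of the cattle miRNA. The other 143 (74.1%) ended before it and are shared by mouse and cattle over their length. The rat bases at positions 22 and 23 were not compared. Position 23 is the last base of the cattle-named form, so the species rests on a single end base here. Whether that base was added to the end of a mouse strand was not tested. The table appears to list a sequence only from about 5 reads, although 80 of 2541 feature values above 0 were under 5. A mouse form below about that level could go unseen, and no limit was drawn from these zeros.

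**Figure D1:**
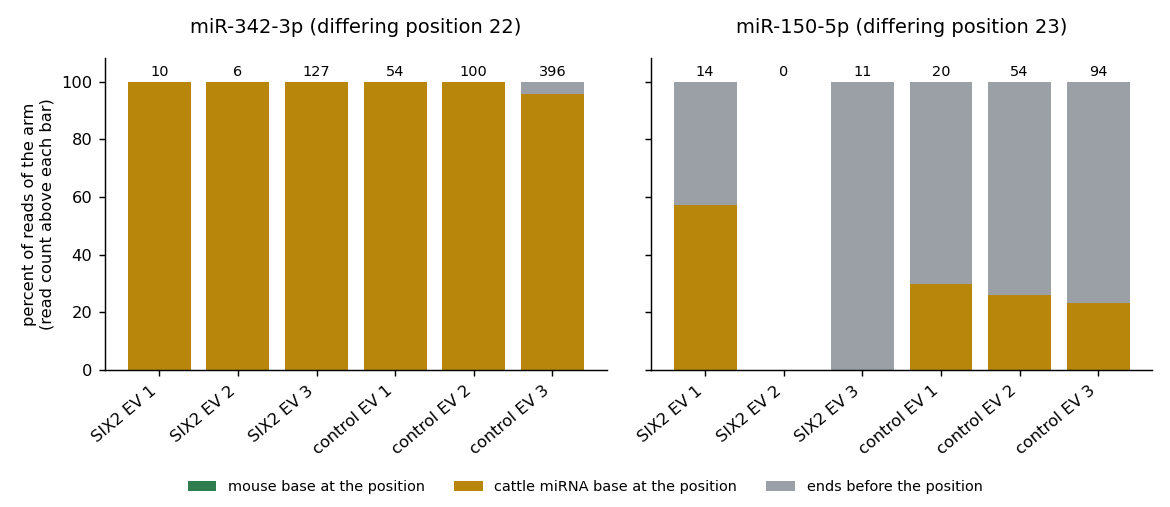
Reads of miR-342-3p (left) and miR-150-5p (right) in each library, as percent of the reads of that arm (vertical axis, with the read count above each bar). They are split by whether they have the mouse base or the cattle miRNA base at the differing position, or end before it. For miR-150-5p that position is the last base of the cattle-named form. No bar has a mouse part, and miR-342-3p reads with the cattle miRNA base make up 100% of the arm in 5 of 6 libraries.

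For the arms of miR-142 and for miR-223-3p the species could not be read from the sequence: the authors' list of hairpins for these features held both mouse and cattle entries. Their part from either species was not tested. Beside this, 68 of the 515 mature features had cattle names. Of these, 16 to 24 were above 0 in the SIX2_EV libraries and 27 to 62 in the control_EV libraries. Over all features the counts above 0 did not overlap either, with 276 to 419 in SIX2_EV and 439 to 680 in control_EV. Cattle names took 44.5%, 73.4% and 12.9% of the reads with mature names in SIX2_EV and 14.3%, 4.6% and 2.16% in control_EV, led by sequences other than the members. A species prefix is only the name given to a sequence. Whether these other sequences came from cattle was not tested.

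Facts of the whole table bear on all levels below. The deposited reads per library ranged from 179621 to 421279. Reads of miRNAs with a mouse hairpin made up 6.78% to 32.65% of them in SIX2_EV and 31.5% to 70.8% in control_EV. Sequences named mir-1285 took 7.94% and 7.47% of reads in the third library of each group and at most 0.447% in the other 4, so 1 library per group, the third, stood apart. Replicates differed far beyond counting error, with a chi-square per degree of freedom of 56.9 or more in every pair. Levels are given as CPM, reads per 1000000 scaled by edgeR's TMM factors, unless another scale is named. On this scale 5 reads were worth 22.6 to 69.5 CPM in SIX2_EV and 4.44 to 18.1 CPM in control_EV. Each read covers the whole miRNA, so levels of different miRNAs were compared without a length correction.

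miR-142 took most of the reads of these miRNAs. Its 5p arm alone made up 65.9% of the 12575 member reads in all libraries and its 3p arm 22.3%. The next were miR-223-3p with 4.72%, the shorter cattle-named miR-342 with 3.64% and the longer one with 1.73%. In every library the 5p arm of miR-142 stood above its 3p arm, and the 3p arm above each other member. Below these, the values of neighbouring members overlapped between libraries and gave no firm order. By mean CPM over the 6 libraries, miR-142-5p ranked 31 of 756 features and 19 of 515 mature names, miR-142-3p 82, the shorter cattle-named miR-342 179, miR-223-3p 195 and the rat-named miR-150-5p 289 of 756.

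miR-142-5p, the most abundant member, was counted 268, 198 and 826 times in SIX2_EV and 1108, 1652 and 4235 times in control_EV. On the CPM scale these were 2529, 2751 and 3727 against 4020.0, 4103 and 3758, with means of 3002 ± 637 and 3960.3 ± 179.8 (SD, n = 3). Each SIX2_EV library lay below each control_EV library, although the gap between the third libraries, 3727 against 3758 CPM, was small. In bulk RNA, fewer cells that carry a miRNA and less of it per cell cannot be told apart, nor can RNA of the cells and RNA brought by the vesicles. Whether part of these reads came from another species was not tested either. Among all tested features, 16.9% were lower in SIX2_EV without overlap on this scale. edgeR's quasi-likelihood test gave a log2 fold change of SIX2_EV over control_EV of -0.40 (SE 0.24) and an adjusted p of 0.578, where the median log2 fold change over all 319 tested features was -0.30. Without the third library of each group it was -0.44, with an adjusted p of 0.186 by edgeR.

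The separation of miR-142-5p rested on the scaling. Among the reads of miRNAs with a mouse hairpin, miR-142-5p took, in reads per 1000000, 10747, 12547 and 13736 in SIX2_EV and 13656, 11510.4 and 14191 in control_EV, means of 12343 ± 1505 and 13119 ± 1419 (SD, n = 3). The groups overlapped on this scale, which was added after the data were seen, and the log2 fold change was -0.09 with an adjusted p of 0.906 by edgeR (0.186 to 0.930 over all alternatives run). They also overlapped relative to all deposited reads and relative to reads with any mature name, and did not overlap in the authors' normalized signal, where 16.3% of all tested features were lower without overlap. The level of miR-142-5p among miRNAs thus differed between libraries by less than its level among all reads, which ran from 0.0851% (Wilson interval 0.0741 to 0.0978) in the second SIX2_EV library to 1.01% (0.976 to 1.04) in the third control_EV library. These intervals are at 95% and cover counting error only.

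For miR-142-3p, the other arm of the same hairpin, SIX2_EV libraries held 83, 29 and 243 reads and control_EV libraries 249, 502 and 1697. These were 783, 403 and 1096 CPM against 903, 1247 and 1506 CPM, with means of 761 ± 347 and 1219 ± 302 (SD, n = 3). The groups overlapped, since the third SIX2_EV library lay above the first control_EV library. The log2 fold change was -0.67 (SE 0.42) with an adjusted p of 0.578 by edgeR. It was -0.33 without the third control_EV library and -0.37 without the second SIX2_EV library.

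The share of the 3p arm among miR-142 reads does not depend on how libraries are scaled. In SIX2_EV it was 23.6% (95% Wilson interval from 19.5 to 28.4), then 12.8% (9.04 to 17.7) and 22.7% (20.3 to 25.3). In control_EV it was 18.3% (16.4 to 20.5), 23.3% (21.6 to 25.1) and 28.6% (27.5 to 29.8). The means were 19.7% ± 6.03 and 23.4% ± 5.13 (SD, n = 3). The second SIX2_EV library was low and the third control_EV library high, and the other 4 lay between 18.3% and 23.6%. The mean log2 ratio of 3p to 5p reads was -2.08 ± 0.60 in SIX2_EV and -1.73 ± 0.42 in control_EV (SD, n = 3), a difference of -0.35. Its two-sided p was 0.6 by an exact permutation test, where 0.1 is the smallest possible. Without the second SIX2_EV library the difference was 0.00. Several libraries of 1 group differed in this share by more than their counting intervals, so replicates varied beyond counting error.

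**Figure D2:**
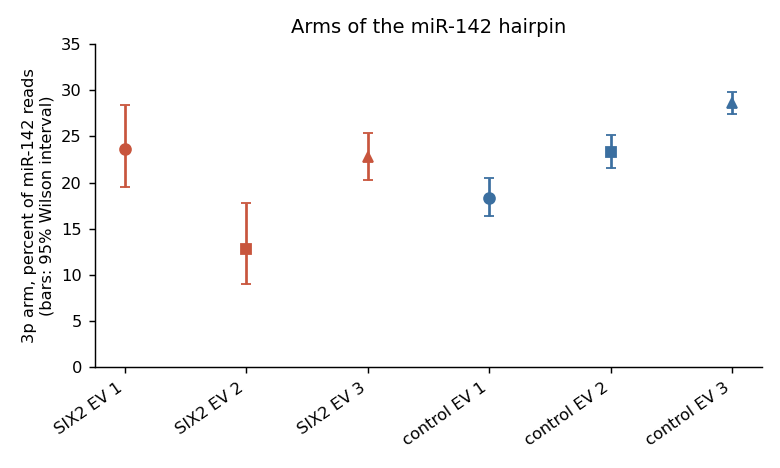
Share of the 3p arm among miR-142 reads (vertical axis, percent) in each library, with 95% Wilson intervals as bars. The second SIX2_EV library is the lowest at 12.8% and the third control_EV library the highest at 28.6%, and the groups overlap.

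miR-223-3p, the miRNA of granulocytes and monocytes, was listed at 0 in the first and second SIX2_EV libraries and had 61 reads in the third. The control_EV libraries had 33, 38 and 461 reads. In CPM the values were 0, 0 and 275 against 120, 94.4 and 409. The third SIX2_EV library stood above the first and second control_EV libraries, so the groups overlapped. The means were 91.7 ± 159 and 208 ± 175 CPM (SD, n = 3), the log2 fold change was -1.12 (SE 1.77) and the adjusted p was 0.857 by edgeR. Without the third SIX2_EV library the group was at 0 throughout, the adjusted p was 0.106 by edgeR (0.106 to 0.995 over all alternatives run), and the fitted fold change is then no measure of size. Without the third control_EV library the log2 fold change was -0.09.

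Within each group the third library was the one rich in miR-223-3p. Relative to miR-142-5p of the same library, miR-223-3p reads came to 7.38% in the third SIX2_EV and 10.9% in the third control_EV library, against 2.98% and 2.30% in the other control_EV libraries and 0 in the other SIX2_EV libraries. miR-342 followed the same libraries: its reads came to 3.73%, 3.03% and 15.4% of miR-142-5p reads in SIX2_EV and to 4.87%, 6.05% and 9.49% in control_EV. miR-150 did not, with 5.22%, 0 and 1.33% in SIX2_EV and 1.81%, 3.27% and 2.22% in control_EV. The mir-1285 sequences were also high in the third library of each group, and their part in the miR-223-3p and miR-342 values was not tested.

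**Figure D3:**
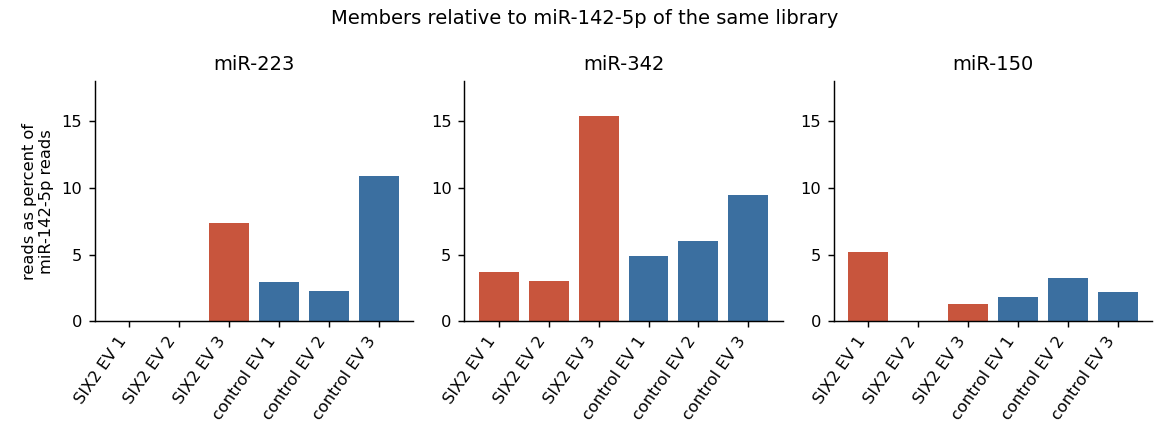
Reads of miR-223, miR-342 and miR-150 (all features of each summed) as percent of miR-142-5p reads in the same library (vertical axes), by library and group. miR-223 and miR-342 are highest in the third library of each group, at 7.38% and 10.9% for miR-223 and at 15.4% and 9.49% for miR-342, while miR-150 is highest in the first SIX2_EV library at 5.22%.

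miR-342 reads were nearly all of the cattle-named forms. Reads of the shorter one numbered 10, 6 and 87 for SIX2_EV and 44, 60 and 251 for control_EV, or 94.4, 83.4 and 393 CPM against 160, 149 and 222.7 CPM. The third SIX2_EV library was the highest of all 6 and the other SIX2_EV libraries the lowest. The means were 190.1 ± 175.4 and 177 ± 39.9 CPM (SD, n = 3). edgeR gave a log2 fold change of 0.12 (SE 0.79), adjusted p 0.967. Without the third SIX2_EV library the log2 fold change was -0.84. The longer form was listed at 0 in the first and second SIX2_EV libraries and had 40 reads in the third, against 10, 40 and 128 in control_EV. Its means were 60.2 ± 104 and 83.1 ± 41.1 CPM (SD, n = 3). edgeR gave a log2 fold change of -0.39 (SE 1.67), adjusted p 0.943. Without the third SIX2_EV library that adjusted p was 0.0989 by edgeR (up to 1.00 over all alternatives run), with every remaining SIX2_EV value at 0, and without the first SIX2_EV library the log2 fold change was 0.18. Summed with the 2 rat-named arms, miR-342 stood at 94.4, 83.4 and 573 CPM in SIX2_EV and at 196, 248 and 357 CPM in control_EV. Of the rat-named arms, the 3p had 17 reads and the 5p 6 reads in the third control_EV library, the deepest, and were listed at 0 in the other 5, so both failed the filter on low counts and were not tested.

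miR-150, the lymphocyte miRNA, was near the lower end of what the table lists. Its rat-named 5p arm was seen in 6, 0 and 11 reads of SIX2_EV and in 14, 40 and 72 reads of control_EV, means of 35.4 ± 30.9 and 71.3 ± 25.1 CPM (SD, n = 3). The first SIX2_EV library, at 56.6 CPM, lay above the first control_EV library, at 50.8 CPM, so the groups overlapped. The log2 fold change was -0.95 (SE 1.13) with an adjusted p of 0.784 by edgeR. It was -0.40 without the second SIX2_EV library, where the miRNA was listed at 0, and -0.41 with zeros set to 4 reads. The cattle-named miR-150 had 8, 0 and 0 reads against 6, 14 and 22, with means of 25.2 ± 43.6 and 25.4 ± 8.23 CPM (SD, n = 3). Its log2 fold change was -0.03 (SE 1.55) with an adjusted p of 0.998 by edgeR. Without the first SIX2_EV library, the only one of its group with reads, that feature was at 0 in all remaining SIX2_EV libraries, and without the second or the third SIX2_EV library its log2 fold change was 0.59 or 0.87. No difference between the groups was detected for either form.

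**Figure D4:**
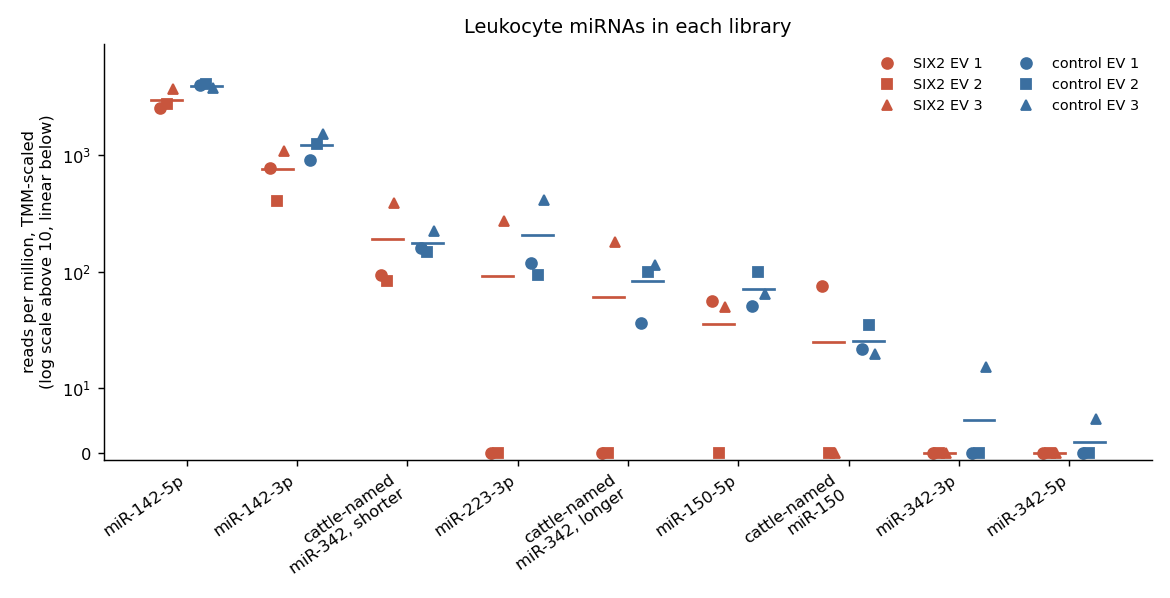
Level of each of the 9 features in each library (points, with a shape per replicate number) and the group mean (short lines). The vertical axis gives TMM-scaled CPM on a log scale above 10 and a linear one below. The features run from miR-142-5p at 2529 to 4103 CPM down to the rat-named miR-342 arms, seen in 1 library, and for miR-142-5p alone do the groups not overlap.

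As a group, 7 of the 9 features passed the filter on low counts and were tested. Of these, 0 had an adjusted p under 0.05 by edgeR, and of all 319 tested features 0 had (0.0%). At an unadjusted p under 0.05 there were 0 of the 7, and 39 of the 319 (12.2%). DESeq2 called 0 of the 7 and 20 of 312 features with an adjusted p (6.41%), and limma-voom called 0 of all features. The log2 fold change was negative for 6 of the 7, where it was negative for 64.6% of all tested features. The median of the 7 was -0.40 beside -0.30 for all features. In 1 of the 7, miR-142-5p, the groups did not overlap on the CPM scale, beside 22.9% of all tested features in either direction.

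Scaling moved the members along with the rest of the table. With total counts all 7 were negative, with a median of -1.61 where the median of all features was -1.52. Scaled to the reads of miRNAs with a mouse hairpin, 5 of 7 were negative, with a median of -0.22 beside 0.03 for all features. miR-142-5p, miR-142-3p, miR-223-3p, miR-150-5p and the longer cattle-named miR-342 were negative under all 7 scalings that were run. The shorter cattle-named miR-342 was positive under 5 of them and turned negative with total counts (-0.86) and with all mature names (-0.09), and the cattle-named miR-150 had both signs.

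**Figure D5:**
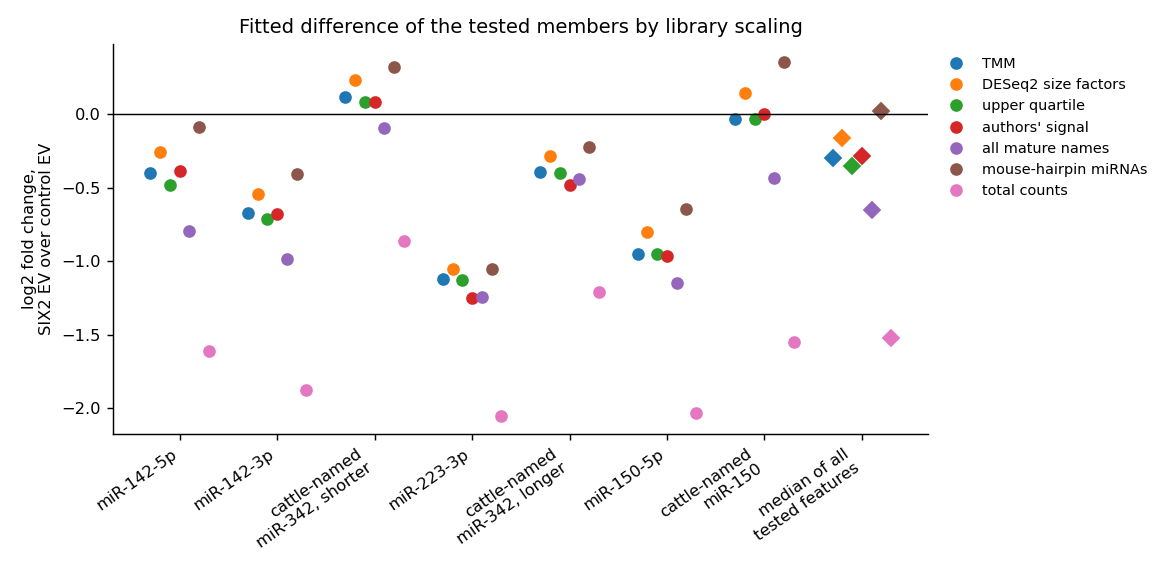
Fitted log2 fold change of SIX2_EV over control_EV (vertical axis) for the 7 tested members under 7 library scalings (colours), with the median of all tested features at the right (diamonds). Members shift together with the median, from -1.52 with total counts to 0.03 with reads of mouse-hairpin miRNAs.

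Other miRNAs whose level ran most like that of miR-142 were sought among 312 tested features, by the root mean square difference over the 6 libraries of log2(CPM + 10), each feature centred on its own mean. Closest to miR-142-5p were let-7f-5p (0.115), miR-30b-5p (0.116) and miR-21-5p (0.140), where the median over all candidates was 0.963. Closest to miR-142-3p were miR-30d-5p (0.199), let-7d-3p (0.267) and the hamster-named miR-26a-2 (0.304), with a median of 0.927. The 2 arms of miR-142 were 0.450 apart, so that the 3p arm would rank 72 by likeness to the 5p arm. All of these share the same libraries and scaling, and the differences describe likeness only.

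Levels of miRNAs of other cell types were taken from fixed lists. From the list of 10 neuronal miRNAs, 5 could be matched by name, and the 3 of them that were tested had negative values (median -0.74). The most abundant, miR-7a-5p, stood at 1931 to 2585 CPM in SIX2_EV and 1558 to 2866 CPM in control_EV, below miR-142-5p in every library. miR-124-3p, the defining neuronal miRNA, could be matched to none of the names used here, and miR-9-5p was listed in 1 library. In cultures labelled as dopaminergic, miR-142-5p thus stood above the 5 neuronal miRNAs that could be matched, and the other 5 were not compared. All 14 further immune-regulatory miRNAs were matched, and 11 were tested, with 10 negative values, 1 positive one and a median log2 fold change of -0.28, beside 64.6% negative and a median of -0.30 over all tested features. They were led by miR-21-5p at 38971 to 65491 CPM in SIX2_EV and 53258 to 65835 CPM in control_EV. The 4 red blood cell miRNAs, led by miR-451-5p, summed to 14298 to 21661 CPM in SIX2_EV and 9178 to 31275 CPM in control_EV (3 negative and 1 positive, median -0.39).

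The remaining lists were smaller. Both platelet and endothelial miRNAs, led by miR-126a-3p at 403 to 794 CPM in SIX2_EV and 522 to 1388 CPM in control_EV, had negative values (median -0.49). Of the mesenchymal list, led by miR-199a-3p at 920.4 to 1042 and 963 to 1180 CPM, 2 members were tested (median -0.03), and of the hepatic list, led by miR-192-5p at 125 to 576 and 323 to 449.5 CPM, 2 (median -0.44). The epithelial and oligodendroglial lists had 1 tested member each, miR-200a-3p (-0.30) and miR-219a-5p (0.58), and the muscle list none, with miR-1a-3p at no more than 14.9 CPM. No list had a member with an adjusted p under 0.05 by edgeR (0 members in all, with 1, miR-132-3p of the immune list, at an unadjusted p under 0.05, beside 12.2% of all tested features). The summed level of each list overlapped between the groups. Single tested members were lower in SIX2_EV without overlap in 3 lists, beside 16.9% of all tested features. They were miR-132-3p and miR-181b-5p of the immune list, miR-144-3p of the red blood cell list and miR-128-3p of the neuronal list. The untested miR-200b-3p of the epithelial list was also lower without overlap, at 0 in SIX2_EV and 18.1 to 65.7 CPM in control_EV. All these members are named after their values were seen. Whether any of these cell types contributed to the miR-142, miR-223, miR-150 and miR-342 reads was not tested.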

How the data were processed

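Trizol RNA was made into TruSeq small RNA libraries, and the authors cleared reads of adapters, common RNA families and repeats with their program ACGT101-miR, per the labels' protocols. No build, miRBase release or mapping setting is named in these sources. The deposited table gives estimated counts per sequence and locus, split over loci, per the file headers (raw). The authors' normalized signal equals these times 1 factor per library.

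Rows identical in name and sequence were added up, rounded to whole reads and tested by quasi-likelihood in edgeR (version 4.0.16, R 4.3.3; TMM, filterByExpr, no block, Benjamini-Hochberg adjustment at 0.05 over the 319 of 756 features that passed). DESeq2 1.42.0 and limma 3.58.1 were alternatives. Single values were compared with exact permutation tests (scipy 1.17.1). The procedure was tested on simulated data whose libraries shared the same composition apart from changes set in advance. That test therefore does not cover libraries that differ in composition as these do. Intervals are Wilson intervals at 95%. Mature names were those with miR or let-7 that are not other sequences of a hairpin. Named features were all members, the 3 nearest to each miR-142 arm and the most abundant of each of 9 cell type lists, matched without species prefix or isoform suffix. The members and lists were chosen with earlier results of these data known.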

Additional observations from a re-analysis of the deposited data

How the results depend on the processing

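The count of features past an adjusted p of 0.05 stayed at 0 under every alternative except DESeq2 (20), and was 0 without each library in turn. At an unadjusted p under 0.05 it was 39 with all libraries, 99 with replicates 1 and 2 only, and between 10 (without control_EV replicate 2) and 76 (without SIX2_EV replicate 3) without single libraries. The fold changes of miR-142-5p, miR-142-3p, miR-223-3p and miR-150-5p kept their negative sign under all alternatives run. The cattle-named miR-150, at -0.03, turned positive or 0 with DESeq2 size factors (0.15), DESeq2 (0.16), the authors' signal (0.00), sums by mature name (0.005), zeros set to 4 (0.89), mouse-hairpin miRNA reads (0.36, added after the data were seen) and replicates 1 and 2 only (0.73), and ran from -6.42 to 0.87 without single libraries. The longer cattle-named miR-342 turned positive with zeros set to 4 (0.18) and ran from -8.02 to 0.18 without single libraries. The shorter one turned negative with total counts (-0.86), all mature names (-0.089), replicates 1 and 2 only (-0.60) and the replicate block (-0.23). Without single libraries the shorter one ran from -0.84 to 0.44. With sums by mature name, both cattle-named miR-342 forms were added together and stood at -0.018. The miR-142 arm difference ran from -0.56 to 0.002 without single libraries. The large values come from groups left at 0 and are no measure of size. The causes of the other changes were not tested.

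Deviations from the group means had correlations of 0.21, 0.07 and 0.67 between same-numbered libraries. Between differently numbered libraries of the groups they ran from -0.67 to 0.62. Not every same-numbered pair was clearly correlated, so same-numbered libraries were not taken as pairs. With the replicate block 0 features passed, and the arm difference was -0.35 with an exact sign-flip p of 0.75. Depth limits miR-150, miR-223 and the rat-named miR-342, whose SIX2_EV values rest on 61 reads or fewer per library.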
